A study of Mus musculus with 10 samples.

Results

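The 10 genes described here belong to the BCL2 family, the proteins that set whether the mitochondrial outer membrane is breached during apoptosis. Their levels were compared between 5 lung squamous cell carcinomas (SCC) and 5 control lungs (WT) of mice. The genes were taken by name, as Bcl2, Bcl2l1, Mcl1, Bax, Bak1, Bid, Bcl2l11, Bbc3, Pmaip1 and Bmf, and the rule used no measured difference. They are 10 of the 19096 genes that could be paired with a probe. They were read by 19 of the 41174 probes of the array, all 19 of which passed the filter on dim probes. The probe with the brightest mean in the deposited matrix stood for each gene, and that probe was well above background on every array for all 10 genes. The control mice carried floxed alleles of Lkb1 (Lkb1f/f) and no Cre, and gave RNA of the whole lung. The tumour mice (CCSPiCreLkb1f/f) carried the same floxed alleles together with a Cre recombinase under the promoter of CCSP, the club cell secretory protein of the airway epithelium, and gave RNA of a whole lung tumour. All mice were aged 13 months, of the strain labelled B6.129, and received no treatment. The loss of Lkb1, tumour growth and the change of tissue from whole lung to tumour cannot be told apart in this design. In RNA from whole tissue, fewer cells of a type and less RNA per cell cannot be told apart either.

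BCL2 family proteins share short BCL2 homology (BH) domains and act on one another by direct binding. Guardians such as BCL2, BCL-XL and MCL1 hold the effectors BAX and BAK in check, and the BH3-only proteins, which report stress and growth factor loss, bind the guardians or activate the effectors. When BAX or BAK assemble pores, cytochrome c leaves the mitochondria and starts the caspase cascade through APAF1. The tissues of the lung differ in the members on which they depend, and lymphocytes, neutrophils and endothelium each express a characteristic set.

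Levels were log2 quantile-normalized intensities of single-colour Agilent arrays, and a difference is SCC minus WT in log2 units. Of all probes, 71.0% to 74.5% were well above background on 9 arrays and 90.2% on SCC replicate 5. Of the 3 slides, slide 1 held WT replicates 1 to 4 and slide 3 held SCC replicates 4 and 5. Slide 2 alone held both groups, as WT replicate 5 and SCC replicates 1 to 3. The deleted gene, Stk11, could be matched to none of the probes and is not analysed here. The 9 squamous epithelium markers tested were higher in SCC. Of these, 6 were well above background on every WT array and 2 on none, so that at least the latter 2 entered the test only through SCC. The list had mean levels of 14.37 to 14.69 on 4 tumours, 10.90 on SCC replicate 2 and 5.06 to 5.61 in WT. SCC replicate 2 therefore stood apart from the other tumours, and the results on the BCL2 family genes that turn on it are given with and without it. It was also the tumour with Xist, the RNA of the inactive X chromosome, at 2.58 and the Y-linked Ddx3y at 11.28, where the other tumours had Xist at 13.75 or above. SCC replicate 5 carried both RNAs, with Ddx3y at 8.34. Among the control lungs, replicates 2 and 3 had Xist at 4.33 and 2.27 and Ddx3y at 10.91 and 11.53, and the part of sex in the results was not tested. The labels do not state that replicates were separate mice, so the p-values measure the spread between these samples.

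The BCL2 family genes did not move in 1 direction. Bak1, Pmaip1 and Bid were higher in SCC, Bcl2, Bmf, Bbc3 and Bcl2l11 were lower, and Mcl1, Bcl2l1 and Bax did not pass the test. That was 7 of 10 genes at an adjusted p below 0.05, where 53.9% of the 15586 genes whose brightest probe was tested passed, 25.5% of them higher and 28.4% lower as shares of the same total. At least a 2-fold difference was reached by Bak1 and Pmaip1, 2 of 10 genes, both higher, against a background of 24.9% in either direction and 11.6% higher. The ranges of the groups did not overlap for 5 of 10 genes (Bcl2, Bcl2l11, Bak1, Bbc3 and Bid), and the background for this was 41.4%. The shares lie near those of the whole array, so the counts alone say nothing particular to this family. The median difference was -0.10 over the 10 genes and -0.038 over all genes tested. The passes listed here are of the fit without slide, and those other than Bid did not hold with slide as a block, as given below.

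**Figure D1:**
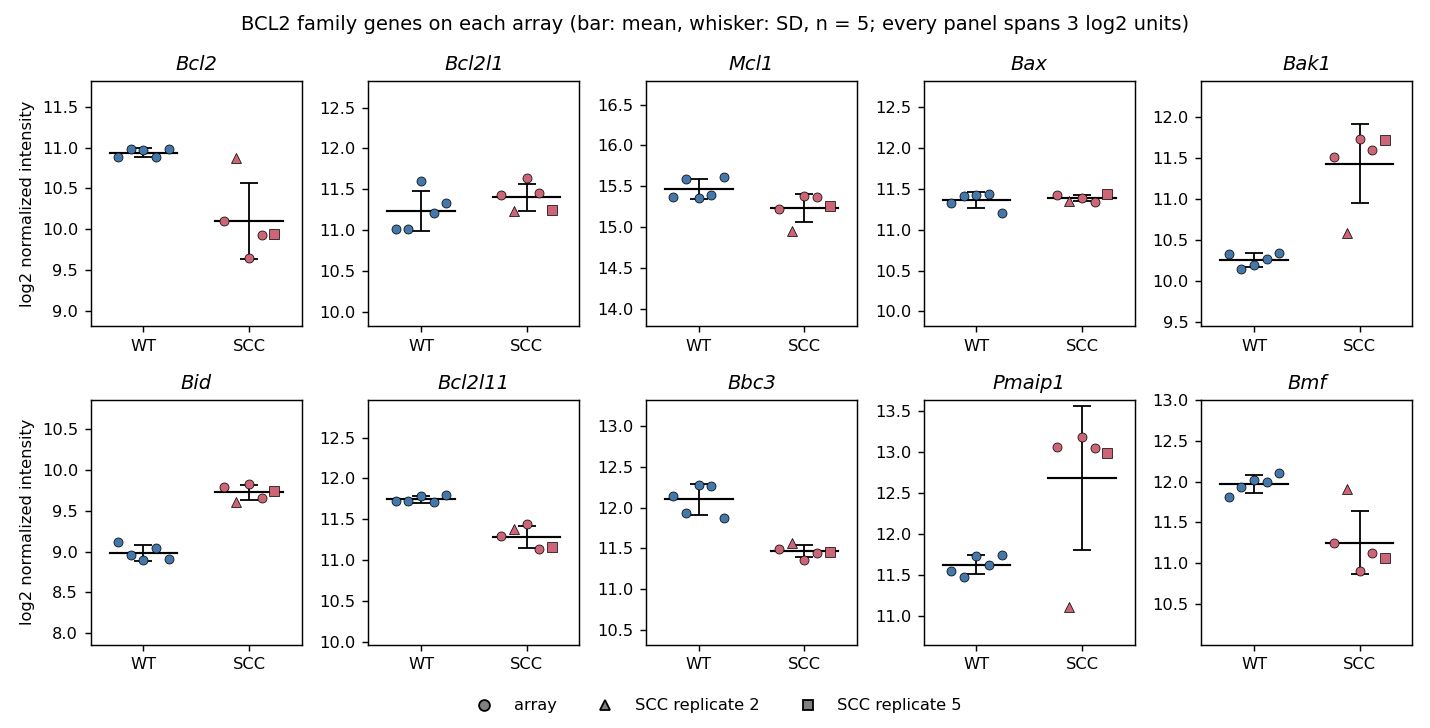
Level of each BCL2 family gene on each array (y axis, log2 normalized intensity, brightest probe of the gene) for WT and SCC, with points for arrays, bars for means and whiskers for SDs (n = 5). Every panel spans 3 log2 units but is centred on its own gene, so heights compare arrays and not genes. SCC replicate 2, the triangle, lies just under WT for Bcl2, among WT for Bmf and below every WT array for Pmaip1, while Bid, Bbc3 and Bcl2l11 separate all SCC arrays from all WT arrays.

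The guardians were led by Bcl2, whose product holds back BH3-only proteins and the effectors. Bcl2 read 10.88, 10.98, 10.97, 10.88 and 10.98 in WT replicates 1 to 5. In SCC replicates 1 to 5 it read 10.10, 10.88, 9.65, 9.93 and 9.94. The WT arrays were tightly grouped, 4 tumours lay well under them, and SCC replicate 2 was just below the lowest WT array. Bcl2 fell by 0.84 ± 0.20 (SE, n = 5 a group; adjusted p = 0.00651, limma), or 1.79-fold. Without SCC replicate 2 it fell by 1.03 (adjusted p = 2.31e-05). Its other probe fell by 0.68 (adjusted p = 0.00272).

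Bcl2l1 encodes BCL-XL, a guardian widely used by epithelia, platelets and neurons. Its level ranged from 11.01 to 11.60 in WT, with a median of 11.20, and from 11.24 to 11.64 in SCC, with a median of 11.42. The difference of 0.17 ± 0.14 (adjusted p = 0.322) had a 95% confidence interval of -0.13 to 0.47, and the groups overlapped. Leaving out 1 array moved it from 0.11 (without SCC replicate 3) to 0.26 (without WT replicate 3). Its other probes differed by 0.38 (adjusted p = 0.131) and 0.22 (adjusted p = 0.378), again without passing.

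Mcl1, a short-lived guardian on which neutrophils and many tumours rely, read 15.37, 15.59, 15.36, 15.40 and 15.62 in WT. It read 15.23, 14.96, 15.38, 15.37 and 15.26 in SCC. The lowest value belonged to SCC replicate 2, and SCC replicates 3 and 4 lay inside the WT range. The difference of -0.23 ± 0.11 (adjusted p = 0.101; 95% confidence interval -0.47 to 0.01) did not pass, although the exact two-sided permutation test of this probe alone gave p = 0.0397. With 75th percentile scaling in place of quantile normalization the difference was -0.043 (adjusted p = 0.826). The other Mcl1 probe differed by 0.31 in the opposite direction (adjusted p = 0.181).

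The effectors BAX and BAK form the pores themselves, and their genes gave unlike results. Bax lay between 11.20 and 11.43 in WT and between 11.34 and 11.44 in SCC. The ranges overlapped, and the difference of 0.030 ± 0.078 (adjusted p = 0.767) had a 95% confidence interval of -0.14 to 0.20. Bax thus had the narrowest SCC spread of the 10 genes, with an SD of 0.041.

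Over all 10 arrays and on the brightest probes, Bak1 had the largest of the 10 differences, a rank that passed to Pmaip1 without SCC replicate 2. It read 10.33, 10.15, 10.20, 10.27 and 10.34 in WT. In SCC it read 11.51, 10.59, 11.74, 11.61 and 11.73, so every tumour exceeded every control lung and SCC replicate 2 was the lowest of the tumours. Bak1 rose by 1.18 ± 0.21 (adjusted p = 0.00128), or 2.26-fold, and the exact permutation p was 0.00794, the smallest that 5 against 5 arrays can give. Without SCC replicate 2 the rise was 1.39 (adjusted p = 1.30e-06). These values are of the brighter probe, and the dimmer Bak1 probe fell.

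Changes of the effectors were also set against those of the guardians within each array, as the difference of log2 levels between an effector and a guardian, for the 6 possible combinations. The change of Bak1 exceeded that of Bcl2 by 2.02, that of Mcl1 by 1.41 and that of Bcl2l1 by 1.01, each with p = 0.0159 in an exact permutation test adjusted over the 6 combinations. The change of Bax exceeded that of Bcl2 by 0.87 (adjusted exact permutation p = 0.0238). The change of Bax differed from that of Mcl1 by 0.26 and from that of Bcl2l1 by -0.14, neither of which passed (adjusted exact permutation p = 0.0667 and 0.333). Without SCC replicate 2 the same 4 combinations passed, with Bak1 exceeding Bcl2 by 2.42 (adjusted exact permutation p = 0.0119), whereas SCC replicate 2 alone gave 0.40. These comparisons concern changes and not amounts, since levels of different probes share no scale, and those with Bak1 and Mcl1 depend on the probe chosen.

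Among the BH3-only genes, Bid had the smallest adjusted p over all 10 arrays, a rank that passed to Pmaip1 without SCC replicate 2. BID is cleaved by caspase-8 and carries the signal of death receptors to the mitochondria. It read 9.11, 8.96, 8.89, 9.04 and 8.91 in WT and 9.79, 9.60, 9.83, 9.65 and 9.74 in SCC. The tumours formed a narrow band above all control lungs, SCC replicate 2 included. Bid rose by 0.74 ± 0.085 (adjusted p = 9.53e-05), or 1.67-fold, which was less than 2-fold.

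Pmaip1 encodes NOXA, which binds MCL1 and promotes its degradation. It read 11.54, 11.48, 11.73, 11.61 and 11.74 in WT. In SCC it read 13.06, 11.11, 13.18, 13.06 and 12.98. Here 4 tumours lay above every control lung and SCC replicate 2 lay below every one, so the groups overlapped. Pmaip1 rose by 1.06 ± 0.37 (adjusted p = 0.0360), or 2.08-fold, with an exact permutation p of 0.0476. Single arrays decided this call. Without SCC replicate 2 the rise was 1.45 (adjusted p = 1.30e-06), whereas leaving out any other single array gave adjusted p-values of 0.0593 to 0.0823.

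Bcl2l11 encodes BIM, a BH3-only protein that binds all guardians and is induced by forkhead factors when growth factors are withdrawn. It read 11.72, 11.72, 11.79, 11.71 and 11.80 in WT. In SCC it read 11.30, 11.38, 11.45, 11.13 and 11.16, with all tumours below all control lungs. Bcl2l11 fell by 0.46 ± 0.087 (adjusted p = 0.00178), or 1.38-fold, on this probe, while a dimmer Bcl2l11 probe rose.

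Bbc3 encodes PUMA, a BH3-only protein best known as a target of p53. It read 12.15, 11.94, 12.28, 12.26 and 11.87 in WT and 11.50, 11.57, 11.36, 11.45 and 11.46 in SCC. The tumours lay closely together below every control lung, the nearest being WT replicate 5. Bbc3 fell by 0.63 ± 0.10 (adjusted p = 0.000864), or 1.55-fold.

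Bmf, a BH3-only gene whose product is tied to the cytoskeleton and to detachment from matrix, read 11.81, 11.94, 12.02, 12.001 and 12.11 in WT. It read 11.25, 11.91, 10.91, 11.13 and 11.06 in SCC. SCC replicate 2 lay inside the WT range and the other 4 tumours lay below it. Bmf fell by 0.72 ± 0.18 (adjusted p = 0.00718), or 1.65-fold, and by 0.89 without SCC replicate 2 (adjusted p = 5.09e-05), on this probe. A dimmer Bmf probe rose, as given with the other probes.

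Promoter sequences were read from RefSeq (build GRCm38.p6) as windows from 250 bases before to 50 bases after each start. For 9 of the genes 16 windows were examined for motifs of factors known to act on this family, on both strands. The forkhead motif TGTTTAC occurred in 1 window each of Bcl2l11 and Bbc3, and in 3.65% of the 32851 promoters of the table. The E-box CACGTG occurred in windows of Bbc3 and Bax (7.15% of all promoters), and the p53 family decamer in windows of Bmf and Bax (8.36% of all promoters). The AP-1 motif TGANTCA (7.81% of all promoters) and the cyclic AMP response element TGACGTCA (1.79% of all promoters) occurred in 0 of the 16 windows. A match is a string of letters and no evidence of binding. Below are shown the forkhead matches, as the 250 bases before the start of Bcl2l11 (chr2:128125788-128126037, plus strand) and 30 bases around the match of Bbc3 (chr7:16310083-16310112, plus strand), with the match in capitals. They are followed by the 250 bases before the starts of the effector genes, Bax (chr7:45466899-45467148, minus strand) and Bak1 (chr17:27028628-27028877, minus strand). In Bax the earlier capitals mark the p53 family decamer and the later ones the E-box, which do not overlap, and Bak1 has no capitals because its window held none of the 5 motifs.
Bcl2l11: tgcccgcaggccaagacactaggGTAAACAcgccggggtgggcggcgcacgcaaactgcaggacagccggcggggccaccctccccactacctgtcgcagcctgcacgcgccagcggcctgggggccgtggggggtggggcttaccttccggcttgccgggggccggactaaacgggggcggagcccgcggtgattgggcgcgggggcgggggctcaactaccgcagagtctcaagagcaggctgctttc
Bbc3: tctggcgggttTGTTTACaaacaatggggt
Bax: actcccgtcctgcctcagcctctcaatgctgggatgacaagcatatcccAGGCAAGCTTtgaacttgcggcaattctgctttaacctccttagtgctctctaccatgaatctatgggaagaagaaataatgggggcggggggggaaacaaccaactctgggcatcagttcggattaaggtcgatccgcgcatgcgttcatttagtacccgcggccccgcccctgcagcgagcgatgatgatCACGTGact
Bak1: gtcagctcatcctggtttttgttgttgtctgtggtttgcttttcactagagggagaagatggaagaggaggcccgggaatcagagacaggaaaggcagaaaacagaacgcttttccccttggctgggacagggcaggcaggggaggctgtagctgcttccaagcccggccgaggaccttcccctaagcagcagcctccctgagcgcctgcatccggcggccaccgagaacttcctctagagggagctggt
The forkhead match began at position -227 from the start in Bcl2l11, where the window holds it on the opposite strand as GTAAACA, and at position -167 from a start in Bbc3. The windows of the 9 genes held 49.3% to 78.0% G and C, against a median of 52.7% over all promoters, and 1 to 44 CpG dinucleotides against a median of 7.

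Several of these genes were read by more than 1 probe, and for Bak1, Bcl2l11 and Bmf the probes passed the test in opposite directions. Of the 19 probes, 12 passed, 6 higher and 6 lower in SCC (1 of the higher ones, for Bcl2l11, entered the test only through SCC), where 49% of all tested probes passed, 22.4% higher and 26.6% lower. With the mean of all its tested probes Bak1 rose by 0.38 (adjusted p = 0.0485), Bmf differed by -0.034 (adjusted p = 0.768) and Bcl2l11 by 0.30, a mean that includes the probe at background in WT. The dimmer Bak1 probe read 8.57, 8.40, 8.43, 8.63 and 8.53 in WT and 8.19, 7.88, 8.38, 8.27 and 7.75 in SCC. All tumours lay below all control lungs on it, and it fell by 0.42 (adjusted p = 0.0240), the reverse of the rise on the brighter probe.

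For Bmf, a dimmer probe read 6.33, 6.09, 6.15, 6.12 and 6.15 in WT and 7.26, 6.07, 7.75, 7.75 and 7.23 in SCC. It rose by 1.05 (adjusted p = 0.0136), with SCC replicate 2 again beside WT. The third Bmf probe, well above background on 3 of 5 SCC arrays, differed by -0.42 (adjusted p = 0.221). For Bcl2l11, a dimmer probe ranged from 5.91 to 6.38 in WT and from 5.81 to 7.66 in SCC and rose by 0.83 (adjusted p = 0.0485). The third Bcl2l11 probe was well above background on 0 of 5 WT arrays and on 4 of 5 SCC arrays. It entered the test through SCC alone. Its mean signal in SCC was 1.44-fold that in WT, the groups overlapped, and this fold is a description.

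Whether the probes of a gene disagreed was tested on the difference of their log2 signals within each array, for the 8 combinations of a brightest and another probe, leaving out the third Bcl2l11 probe. The third Bmf probe, above background on 3 of 5 SCC arrays, was kept. The changes of the probes of Bak1 differed by 1.60 and those of Bmf by -1.77, both with an adjusted p of 0.0423 (exact permutation test adjusted over 8). The Bcl2l11 probes differed by -1.29 (adjusted exact permutation p = 0.0476) and the Mcl1 probes by -0.54 (adjusted exact permutation p = 0.0423). The other 4 combinations, of Bcl2, Bcl2l1 and the third Bmf probe, did not pass (adjusted exact permutation p of 0.368 to 0.881). Without SCC replicate 2 the same 4 combinations passed, at 1.75 for Bak1, -2.22 for Bmf, -1.60 for Bcl2l11 and -0.63 for Mcl1 (each adjusted exact permutation p = 0.0159). On SCC replicate 2 itself the Bmf probes differed by 0.034 and the Bcl2l11 probes by -0.083. Which transcripts or exons each probe reads was not tested. The directions given for Bak1, Bcl2l11 and Bmf therefore hold for their brightest probes. Bid, Bax, Bbc3 and Pmaip1 were read by 1 probe each, and both Bcl2 probes fell.

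**Figure D2:**
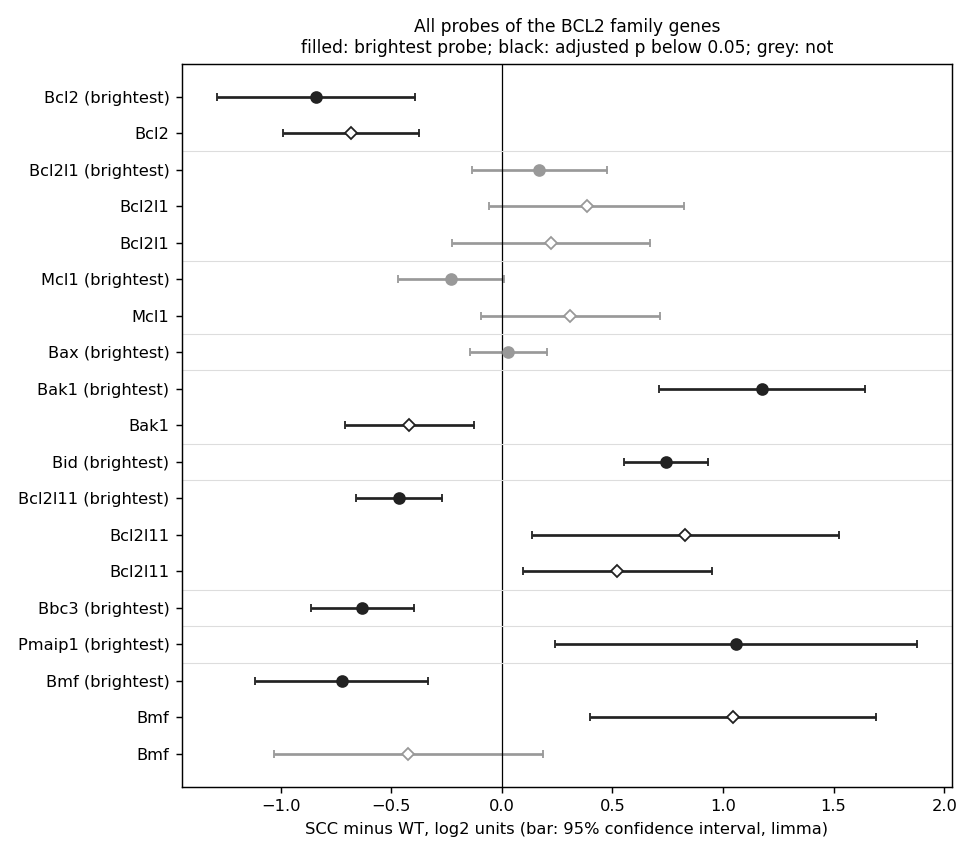
Difference between SCC and WT (x axis, log2 units, with limma's 95% confidence interval) for all 19 probes of the 10 genes, filled for the brightest probe of a gene and open for the others. Black marks an adjusted p below 0.05 and grey its absence. The probes of Bak1, Bcl2l11 and Bmf lie on both sides of 0 with black marks on each side, and the 2 Bcl2 probes lie together at -0.84 and -0.68.

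SCC replicate 2 and the slides bore on these values to different degrees. Relative to the WT mean, SCC replicate 2 differed by 0.33 for Bak1 where the other 4 tumours averaged 1.39, and by -0.51 for Pmaip1 where they averaged 1.45. For Bcl2 the values were -0.06 and -1.03, and for Bmf -0.07 and -0.89. For the other genes that passed, SCC replicate 2 was close to the rest, at 0.62 and 0.77 for Bid, -0.53 and -0.66 for Bbc3, and -0.37 and -0.49 for Bcl2l11. Without both SCC replicate 2 and SCC replicate 5, the array with the most probes above background, 7 genes passed and 3 reached 2-fold, while the calls over all probes went from 6954 to 7890.

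With slide as a block, the estimate equals SCC replicates 1 to 3 minus WT replicate 5, the only control lung on slide 2. Bid was the only one of the 10 genes to pass in that fit, with a rise of 0.83 (adjusted p = 0.0212), and the unadjusted p was below 0.05 for 3 genes. Calls over all probes also fell in that fit, and the share of all genes passing in it was not counted. All 10 estimates kept their sign, but they come from 4 of the 10 arrays of the main fit and are no independent check. Bak1 differed by 0.94 (adjusted p = 0.147), Bcl2 by -0.77 (adjusted p = 0.224) and Bmf by -0.75 (adjusted p = 0.176). Pmaip1 differed by 0.71 (adjusted p = 0.541), Bcl2l11 by -0.42 (adjusted p = 0.0922) and Bbc3 by -0.39 (adjusted p = 0.198). For Bbc3 the estimate was smaller than over all arrays by more than 1.5 times, and WT replicate 5 was the lowest of its control lungs. The genes that did not pass over all arrays also moved, to -0.43 for Mcl1 (adjusted p = 0.191), 0.19 for Bax (adjusted p = 0.421) and 0.11 for Bcl2l1 (adjusted p = 0.834).

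**Figure D3:**
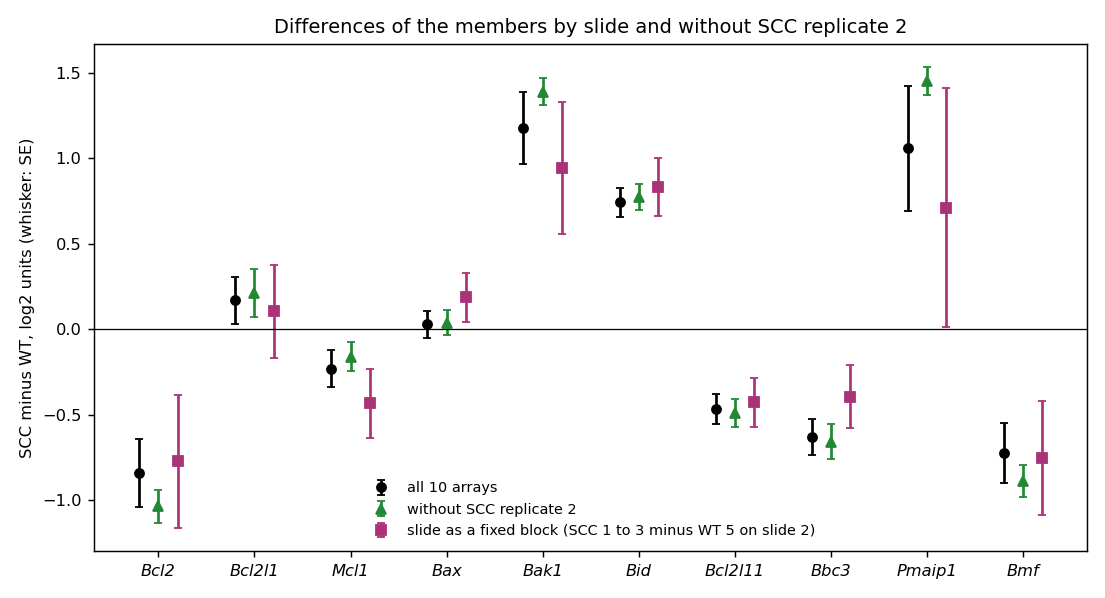
Difference between SCC and WT for the 10 genes (y axis, log2 units, whiskers are SEs) over all 10 arrays, without SCC replicate 2 and with slide as a fixed block. Leaving out SCC replicate 2 moves Bak1 from 1.18 to 1.39 and Pmaip1 from 1.06 to 1.45, and the slide block widens the errors of all 10 genes while each keeps its sign.

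Markers of other cells moved with the groups, and their part in the BCL2 family differences was not tested. The lymphocyte lists fell, 6 of 8 T cell genes and 6 of 7 B cell genes. T cell list means were 8.55 to 9.24 in WT and 7.25 to 7.90 in SCC, and B cell list means were 7.96 to 8.65 and 6.61 to 7.03. All 10 endothelial genes fell, with list means of 14.13 to 14.33 in WT and 11.88 to 12.86 in SCC. The brightest probes of Bcl2, Bmf, Bbc3 and Bcl2l11 fell alongside them, while a dimmer probe each of Bmf and Bcl2l11 rose. In the other direction, 4 of 8 neutrophil genes and 4 of 9 macrophage genes rose, and 2 macrophage genes fell. Neutrophil list means were 9.24 to 10.35 in WT, 11.76 to 11.95 on 4 tumours and 9.37 on SCC replicate 2. Macrophage list means were 12.13 to 12.57 in WT, 13.04 to 13.15 on the same 4 tumours and 12.14 on SCC replicate 2. Bak1, Pmaip1, Bid, Mcl1 and Bcl2l1 were also lowest among the tumours on SCC replicate 2, on their brightest probes. The margin was small for Bid (9.60 against at least 9.65 on the other tumours) and Bcl2l1 (11.24 against at least 11.25). The dimmer Bak1 probe was lowest on SCC replicate 5. Of 10 proliferation genes 9 rose, from list means of 8.04 to 8.84 in WT to 10.83 to 11.21 on 4 tumours and 9.73 on SCC replicate 2. The cardiac muscle list differed among the control lungs themselves, from 10.29 to 14.05, against 8.39 to 10.25 in SCC, and 6 of its 7 genes fell. In every one of these lists but 1 all tested genes were well above background on every array, the exception being the B cell list, where 4 of 7 were so on every SCC array. Of the lists for resident lung cells, 5 of 8 alveolar type 2, 4 of 4 club cell, 2 of 6 ciliated cell and 4 of 7 fibroblast genes fell, and 2 fibroblast genes rose. Of all genes tested 28.4% passed as lower and 25.5% as higher, and the counts of the marker lists are read against these shares.

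Over the pathway lists that follow, 25 of 49 genes tested passed (51.0%), beside the 53.9% of all genes given above, 25.5% higher and 28.4% lower. The counts of the single lists are small and are read against these shares. With slide as a block 8 of the 25 still passed, namely Tnfrsf10b, Tnfsf10, Birc5, Casp6, Trp63, Myc, Atf4 and Jun, and all 25 kept their sign. Without SCC replicate 2 all 25 passed with the same sign. Both fits reuse arrays on which the 25 genes had passed, so kept signs and passes are not independent of that choice. The shares over all genes in these fits were not counted.

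The rest of the BCL2 family was described from a list of 15 further genes, of which 10 could be tested. In SCC 4 rose and 1 fell, with a median difference of 0.27 against -0.038 over all genes. Bcl2l15, a little studied family member of the gut epithelium, rose by 2.80 (adjusted p = 0.00114), from 7.40 to 8.29 in WT to 8.84 to 11.48 in SCC. Bcl2a1b, one of several near-identical copies of the guardian A1, rose by 1.26 (adjusted p = 0.0274), a value that is uncertain because probes for such copies can share signal. Bcl2l13 rose by 0.78 and Bik, another BH3-only gene, by 0.58, while Bcl2l2, which encodes the guardian BCL-W, fell by 0.76. Hrk and Bcl2l10 were too dim to test.

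Downstream of the mitochondria, 2 of 11 genes rose and 1 fell, and the median difference was -0.028. Casp6, which encodes a caspase, rose by 0.73 (adjusted p = 0.000376) and Cycs, which encodes cytochrome c, by 0.42 (adjusted p = 0.0108), while the mitochondrial protease gene Htra2 fell by 0.32 (adjusted p = 0.00808). The other 2 Cycs probes did not pass. Of 5 inhibitor of apoptosis genes, Birc5 (survivin, also a mitosis protein) rose by 2.88 (adjusted p = 7.05e-05) and Birc2 (cIAP1) fell by 0.71. Of 3 genes that act on MCL1 turnover, 1 passed, with Fbxw7, a ubiquitin ligase subunit, at a difference of -0.39 (adjusted p = 0.0121) on its brightest probe and -0.26 on another (adjusted p = 0.261).

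The death receptor pathway, which reaches the mitochondria through BID, changed in both directions. Its ligands were lower: the gene for TRAIL, Tnfsf10, fell by 2.63 and Fasl fell by 1.40. The receptor gene Fas fell by 1.64, with ranges of 13.02 to 13.60 in WT and 11.19 to 12.35 in SCC, whereas Tnfrsf10b, the TRAIL receptor, rose by 1.12. The adaptors and the initiator caspase rose less, Tradd by 0.60, Ripk1 by 0.55, Fadd by 0.49 and Casp8 by 0.41. Cflar, which encodes the caspase-8 inhibitor FLIP, fell by 0.67, and 2 of its other 3 probes did not pass. Other probes of Tnfrsf10b (difference 0.70, adjusted p = 0.209), Ripk1 (-0.069, adjusted p = 0.559) and Fadd (0.23, adjusted p = 0.327) did not pass, while another Ripk1 probe did (0.38, adjusted p = 0.0306). The remaining Tnfrsf10b probe was higher in SCC but was above background on 0 of 5 WT arrays. In all 5 rose and 4 fell of 10 genes. Fasl is also expressed by T cells, of whose 8 markers tested 6 fell, and their part in its difference was not tested.

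Of 10 genes for transcription factors that act on BH3-only genes, 3 rose and 2 fell. Trp63, the p53 family member that marks squamous epithelium and is also in that list, rose by 7.44 (adjusted p = 2.13e-07). Myc rose by 1.65 (adjusted p = 0.000295) and Atf4, which acts on the Pmaip1 gene under stress, by 0.70. Foxo1, a forkhead factor, fell by 0.97 (adjusted p = 0.00133) and Jun by 1.67 (adjusted p = 1.79e-06). Trp53 differed by 0.07 on its brightest probe (adjusted p = 0.627) and by 0.32 on another (adjusted p = 0.0437). No relation between these factors and the BCL2 family genes was tested.

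**Figure D4:**
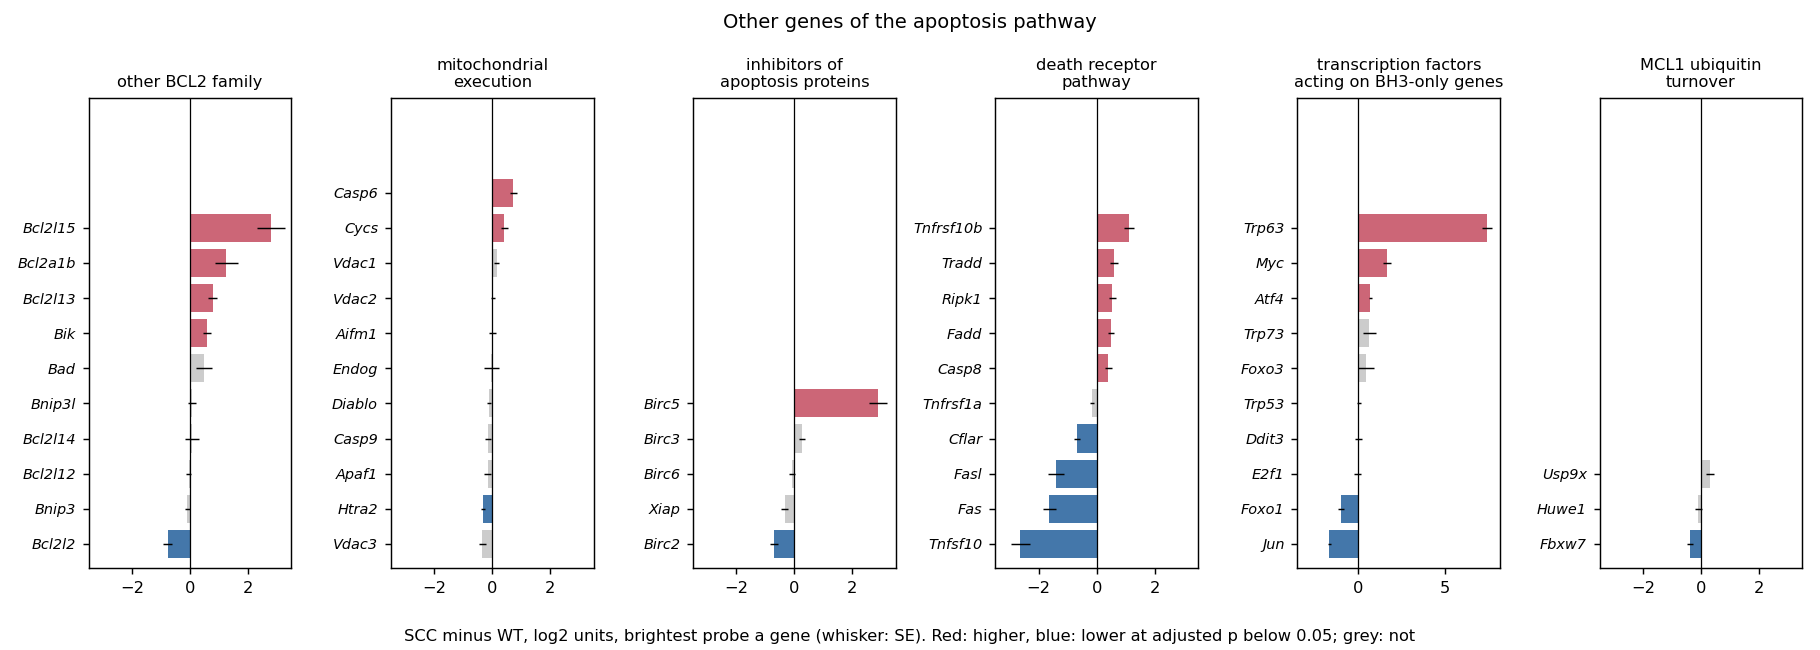
Difference between SCC and WT (x axis, log2 units, whiskers are SEs, brightest probe a gene) for the tested genes of 6 lists of the apoptosis pathway, red for higher and blue for lower at an adjusted p below 0.05 and grey for the rest. The transcription factor panel has a longer x axis, which Trp63 at 7.44 requires. Both directions appear in 5 of the lists, and the MCL1 turnover list holds 1 lower gene.

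The genes whose 10 array values, centred on their own mean, lay nearest to those of the brighter Bak1 probe were Fmn1, Itpkc and Htt. Their root mean square differences from it were 0.048, 0.063 and 0.066 log2 units over 10 arrays, among 14109 genes compared. They differed between SCC and WT by 1.19, 1.08 and 1.16, so the likeness includes this shared difference. Any other relation to Bak1 was not tested.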

How the data were processed

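Total RNA of 5 control lungs and 5 lung tumours were labelled with Cy3 and run on Agilent arrays of the whole mouse genome, 1 array a sample. Per the file headers, the authors extracted the images with Feature Extraction 12.0.0.7, and the deposited scanner files give each spot a background-subtracted, linear processed intensity. A deposited series matrix of log2 values, normalized across arrays by the authors, chose the brightest probe of each gene and served as an alternative. The study's methods state quantile normalization and log2 transformation.

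Spots flagged as controls or outliers were dropped, log2 intensities were averaged over the spots of a probe, and arrays were quantile-normalized. A probe needed the flag "well above background" on a share of at least 0.5 of its spots to count on an array, and on at least 4 of 5 arrays of a group to be tested (30374 of 41174 probes). The model was limma 3.58.1 (R 4.3.3, lmFit and eBayes) on all 10 arrays without covariates, and p-values were adjusted by Benjamini-Hochberg across the tested probes. A gene passed at an adjusted p below 0.05. The number of arrays limits the precision, and on simulated data of this design 159 of 200 probes changed by 2 log2 units were recovered (79.5%). Single values were also compared by an exact two-sided permutation test over the arrays.

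RefSeq genes (GRCm38.p6) gave 28223 probes a symbol. The array headers name mm9, so no probe coordinates are given. All 10 genes are named, with their other probes, and from the pathway lists the genes that passed with at least 2-fold, at most 4 a list; other pathway genes named were chosen after their values were seen. The list of genes acting downstream of the mitochondria leaves out 2 genes that are not reported here. Groups came from the sample titles. The genes and lists were chosen with earlier results of these data known. The alternatives were normexp background correction, 75th percentile scaling, the deposited matrix, other filters, slide and replicate blocks, array weights, the methods' test, the mean of all probes and leaving out arrays. Leaving out SCC replicates 2 and 5 together was chosen after seeing the data.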

Additional observations from a re-analysis of the deposited data

Results flagged for a closer look

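Among 56 groups of 5 values examined, the highest or lowest array stood apart in 8, by a gap to its neighbour above Dixon's 95% critical value, and 7 of the 8 fell on SCC replicate 2. Chance flags about 1 in 20 such groups, and values of the same array are not independent. Bak1 on SCC replicate 2 (10.59) lay below the other tumours with a gap of 0.799 of the range, and Pmaip1 (11.11) with a gap of 0.904. The same array was lowest for the list means of neutrophil (gap 0.928), macrophage (gap 0.895), squamous epithelium (gap 0.915) and proliferation markers (gap 0.746), and highest for endothelial markers (gap 0.747). In WT, replicate 3 was highest for the mean of the other BCL2 family genes, at 9.06 against at most 8.93, with a gap of 0.855.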

How the results depend on the processing

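Of the 10 genes, 7 passed and 2 reached 2-fold, and 6954 of all probes were called. With slide as a fixed block 1 gene passed (1 higher, 0 lower) and 0 reached 2-fold, also 0 at an unadjusted p below 0.05 in limma, with 2989 probes called. As a random block, slide gave a within-slide correlation of -0.017. With no filter on dim probes, with the methods' t-test after Benjamini-Hochberg adjustment and with the mean of all probes of a gene, 1 gene was called, Pmaip1 missing the threshold in the first pair of settings (adjusted p = 0.0508 and 0.0581) and Bak1 the fold in the last. At an unadjusted p below 0.05 the t-test passed 8 genes, and after adjustment 6. With normexp 3969 probes were called. Leaving out 1 array in turn gave 6 to 7 genes passing, 1 to 3 called and 6385 to 8135 probes, the highest values without SCC replicate 2, where Bcl2 joined Bak1 and Pmaip1. Bax ranged from -0.0090 (without WT replicate 5) to 0.049 in these fits, and with the mean of all probes Mcl1 turned to 0.039 and Bcl2l11 to 0.30, since the dimmer probes of both point up, 1 of those of Bcl2l11 being at background in WT. With 75th percentile scaling 3504 probes were called higher and 3080 lower, against 3014 and 3940, the median difference over probes moved by 0.12 from -0.090 to 0.032, and the genes stayed at 3 higher and 4 lower. The replicate numbers did not pair the samples (correlations of -0.103 to 0.0087), and with a replicate block 7 genes passed, 2 were called and 6571 probes were called. The number of arrays and 1 WT array on slide 2 limit the precision.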
